A study of Mus musculus with 6 samples.

Results

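The genes described are 9 members of a single regulatory circuit of lymphoid and leukaemic cells. They are the E protein genes Tcf3 (E2A), Tcf12 (HEB) and Tcf4 (E2-2), the Id genes Id1, Id2 and Id3, and the T-cell leukaemia genes Tal1, Lyl1 and Lmo2. They were chosen by name, for their function, when earlier results of these arrays were already known, so counts among them are descriptions. Each is measured by 1 of the 22414 probe sets in the table. The table names probe sets by Ensembl gene ID, the symbols of these 9 IDs came with the choice of genes, and the reference gene table could not be used to check them because 0 of the IDs occur in it.

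The samples were cultures of Beko, a mouse T-lineage leukaemia cell line, with 1 Affymetrix array in each of 6 conditions. Unmodified cells were cultured for 24 h with 10 μM DAPT, or with DMSO as its vehicle. Cells infected with a DNMAML-ER fusion, and cells infected with a Notch1-ER fusion, were cultured for 48 h with 0.75 μg/mL hydroxytamoxifen (OHT), or with ethanol as its vehicle. DAPT inhibits γ-secretase, which releases active Notch from the membrane. DNMAML is a dominant-negative Mastermind that blocks transcription by Notch, Notch1-ER is a Notch1 protein, and both fusions are switched on by OHT through their oestrogen receptor part. The labels name no second clone, culture or batch for any condition. Whether the arrays carry the markers of T-lineage cells was not analysed here, since the other IDs have no symbols. The medians of the arrays lay between 5.43 and 5.61 on the log2 scale.

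E proteins are basic helix-loop-helix (bHLH) transcription factors that bind E-box sequences as dimers and drive T-cell receptor rearrangement and restrain growth in early thymocytes. Id proteins have the helix-loop-helix but lack the basic region, so they pair with E proteins and keep them off DNA. Tal1 (also SCL) and Lyl1 are bHLH factors that bind DNA only together with an E protein, and Lmo2 is a LIM-domain adaptor that joins such pairs to other factors. All of Tal1, Lyl1 and Lmo2 can cause T-cell leukaemia when wrongly expressed. Notch is known to act on this circuit in developing T cells, among other ways by speeding the breakdown of E2A protein, which an RNA measurement does not see.

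Over the 6 arrays, the Id genes and Lyl1 had the widest ranges of the 9 genes, between 0.92 and 2.59 log2 units, and they ran in opposite directions. Id1 was lower in both treatments that reduce Notch activity and higher when Notch1-ER was switched on. Id2 and Id3 did the reverse in all 3 pairs. Lyl1 went with Id1. The E protein genes, Tal1 and Lmo2 ranged over 0.21 to 0.49 log2 units. With 1 array per condition, none of these differences within a pair has a test, and the only test the design allows, across the 3 pairs, called none of the 9 genes.

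**Figure D1:**
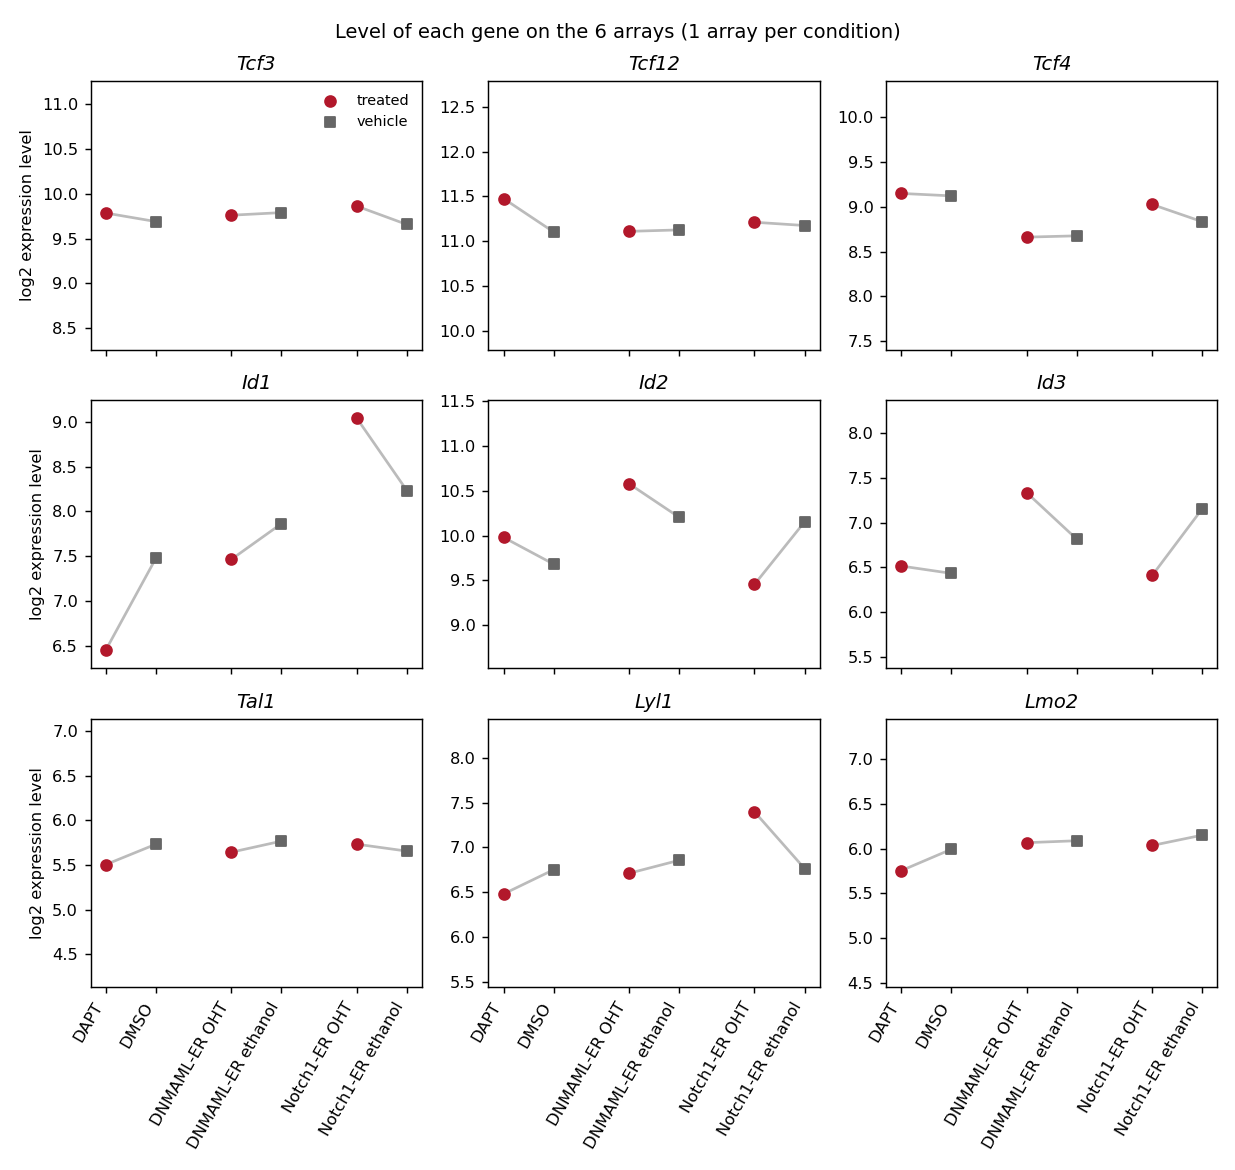
Log2 expression level (y axis) of each gene on the 6 arrays (x axis), with treated arrays as red circles left of their vehicle as grey squares and a line joining each pair. Every panel spans 3 log2 units but starts at its own level, and each point is 1 array. Id1 ranges most widely, between 6.45 and 9.04.

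Id1 is best known as a target of bone morphogenetic protein signalling and as a brake on differentiation. The log2 level of its probe set, ENSMUSG00000042745_at, was 6.45 with DAPT and 7.48 with DMSO. It was 7.46 with OHT and 7.86 with ethanol in the DNMAML-ER line, and 9.04 with OHT and 8.23 with ethanol in the Notch1-ER line. The lowest of the 6 levels was thus that of the DAPT array and the highest that of the Notch1-ER array with OHT, 2.59 log2 units apart. The DAPT array was 2.04-fold under DMSO for Id1, switching on DNMAML-ER left it 1.32-fold lower, and switching on Notch1-ER 1.75-fold higher. Only the DAPT and Notch1-ER differences passed 1.5-fold. The 3 vehicle arrays themselves spanned 0.76 for Id1, more than the DNMAML-ER difference of -0.40. The span was less than the DAPT difference of -1.03 and close to the Notch1-ER difference of 0.81. Vehicle arrays differ in fusion, vehicle or time, here and for the genes below, so their span is not a replicate error.

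Id2 is required for innate lymphoid and natural killer cells, where it holds E proteins down. The log2 level of ENSMUSG00000020644_at, its probe set, was 9.98 with DAPT and 9.68 with DMSO. It was 10.58 with OHT and 10.20 with ethanol in the DNMAML-ER line, and 9.45 with OHT and 10.15 with ethanol in the Notch1-ER line. Each treatment that lowers Notch activity had the higher level of its pair, and the Notch1-ER array with OHT had the lowest level of all 6. The differences came to 1.23-fold higher with DAPT, 1.30-fold higher with DNMAML-ER and 1.62-fold lower with Notch1-ER. Levels overlapped between treatments, because the lines started from different vehicle levels. Only the Notch1-ER difference exceeded the 0.52 that the vehicle arrays spanned. That span lies between DMSO and ethanol, since the Notch1-ER and DNMAML-ER arrays with ethanol differed by only -0.05.

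Id3 is the Id gene that pre-T-cell and T-cell receptor signals induce through Egr factors. The log2 level of ENSMUSG00000007872_at, its probe set, was 6.52 with DAPT and 6.43 with DMSO. It was 7.34 with OHT and 6.81 with ethanol in the DNMAML-ER line, and 6.41 with OHT and 7.16 with ethanol in the Notch1-ER line. The DAPT and DMSO levels lay close together, while the fusion lines moved apart in opposite directions. Id3 was 1.06-fold higher with DAPT, 1.44-fold higher with DNMAML-ER and 1.68-fold lower with Notch1-ER. The vehicle arrays spanned 0.72, so of the 3 differences only that of Notch1-ER, -0.75, was larger, and by little.

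The promoters of Id2 and Id3, which had the same signs in all 3 pairs, are shown with that of Lyl1, which had the opposite signs. Of the 9 genes 6 had an entry among the RefSeq promoters, namely Tcf3, Tcf12, Id2, Id3, Tal1 and Lyl1. Each sequence is the 250 bases before the gene's start on the strand of the gene, from RefSeq on build GRCm38.p6. These are chr12:25096093-25096342 on the minus strand for Id2, chr4:136143572-136143821 on the plus strand for Id3 and chr8:84701207-84701456 on the plus strand for Lyl1. Capitals mark E-boxes (CANNTG), the sites E proteins bind, and the core of the site of Rbpj, the DNA-binding partner of Notch (TTCCCA, or TGGGAA on the other strand), searched on both strands.
Id2: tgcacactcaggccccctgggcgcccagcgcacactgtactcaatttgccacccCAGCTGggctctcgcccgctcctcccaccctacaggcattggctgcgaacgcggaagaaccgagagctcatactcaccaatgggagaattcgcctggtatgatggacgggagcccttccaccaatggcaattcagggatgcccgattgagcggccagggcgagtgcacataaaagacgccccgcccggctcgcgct
Id3: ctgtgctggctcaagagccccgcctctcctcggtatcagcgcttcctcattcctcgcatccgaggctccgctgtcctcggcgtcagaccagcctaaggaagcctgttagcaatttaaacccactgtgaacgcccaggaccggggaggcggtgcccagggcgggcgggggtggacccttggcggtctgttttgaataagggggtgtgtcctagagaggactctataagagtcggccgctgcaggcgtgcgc
Lyl1: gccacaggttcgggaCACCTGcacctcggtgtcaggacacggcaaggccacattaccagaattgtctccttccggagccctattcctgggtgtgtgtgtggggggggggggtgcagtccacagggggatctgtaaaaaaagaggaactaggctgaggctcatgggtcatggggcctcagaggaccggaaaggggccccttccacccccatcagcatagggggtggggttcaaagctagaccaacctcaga
The Id2 window held 1 E-box, of the form CAGCTG, that begins 196 bases before the start. The Lyl1 window held 1 E-box, CACCTG, which is CAGGTG on the other strand, beginning 235 bases before the start, and the Id3 window held 0. None of these 3 windows held the letters of the Rbpj core. Among all 32851 windows of the same length, 66.2% held a CANNTG, which includes the 13.0% with CAGCTG and the 17.2% with CAGGTG on either strand, and 21.6% held TTCCCA on either strand. Among the other members with an entry, the Rbpj core occurred in 1 of the windows of Tal1, beginning 55 bases before the start. These matches describe letters in a short window and show neither binding nor its absence.

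Lyl1, a close relative of Tal1 that early T-cell progenitors express (ENSMUSG00000034041_at), had a log2 level of 6.48 with DAPT and 6.75 with DMSO. It was 6.71 with OHT and 6.86 with ethanol in the DNMAML-ER line, and 7.40 with OHT and 6.76 with ethanol in the Notch1-ER line. The Notch1-ER array with OHT stood apart from the other 5, which lay between 6.48 and 6.86. The differences of Lyl1 came to 1.21-fold lower with DAPT and 1.11-fold lower with DNMAML-ER, but to 1.55-fold higher with Notch1-ER. Its vehicle arrays spanned 0.11, the narrowest span among Id1, Id2, Id3 and Lyl1, so all 3 differences exceeded it. Some differences of Tcf3, Tcf12, Tal1 and Lmo2 also exceeded the spans of their vehicle arrays. Of the tested probe sets, 37.3% differed at least as much as Lyl1 with DAPT and 50.3% with DNMAML-ER.

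Tal1, a gene often switched on by rearrangement in human T-cell leukaemia (ENSMUSG00000028717_at), stayed near the lower limit used here. That limit, 5.54, is the median over all probe sets of their mean level, and a probe set had to reach it on at least 1 array to be tested. Tal1 was 5.50 with DAPT and 5.73 with DMSO, 5.64 with OHT and 5.77 with ethanol in the DNMAML-ER line, and 5.73 with OHT and 5.66 with ethanol in the Notch1-ER line. Its signs were those of Lyl1, at differences of -0.23, -0.12 and 0.08. The DAPT level lay under the limit, and a signal this low need not come from Tal1 RNA.

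Lmo2 (ENSMUSG00000032698_at) was also low, between 5.75 on the DAPT array and 6.15 on the Notch1-ER array with ethanol. It was 5.75 with DAPT and 5.99 with DMSO, 6.07 with OHT and 6.09 with ethanol in the DNMAML-ER line, and 6.03 with OHT and 6.15 with ethanol in the Notch1-ER line. As deposited, Lmo2 was lower in the treated array of every pair, by differences of -0.24, -0.02 and -0.12. Its level is too near the lower limit for differences this small to show whether it followed Notch activity. The sign of the DNMAML-ER difference of Lmo2 turned under 2 of the 3 other scalings, cyclic loess and equal array medians.

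Each E protein gene ranged less widely over the 6 arrays than any Id gene. Tcf3 (ENSMUSG00000020167_at) was 9.79 with DAPT and 9.69 with DMSO, 9.76 with OHT and 9.79 with ethanol in the DNMAML-ER line, and 9.86 with OHT and 9.66 with ethanol in the Notch1-ER line. Its whole range over the 6 arrays was 0.21 log2 units. The difference of 0.21 with Notch1-ER was its widest.

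Tcf12 (ENSMUSG00000032228_at), whose HEB protein is the main partner of E2A in thymocytes, had its highest level on the DAPT array. It was 11.47 with DAPT and 11.10 with DMSO, 11.11 with OHT and 11.12 with ethanol in the DNMAML-ER line, and 11.21 with OHT and 11.17 with ethanol in the Notch1-ER line. The DAPT difference of 0.37, or 1.30-fold, had no counterpart with DNMAML-ER, at -0.02. Of all 12150 tested probe sets, 23.2% differed at least as much with DAPT.

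Tcf4 (ENSMUSG00000053477_at) encodes E2-2, the E protein that plasmacytoid dendritic cells depend on. It was 9.15 with DAPT and 9.12 with DMSO, 8.66 with OHT and 8.68 with ethanol in the DNMAML-ER line, and 9.03 with OHT and 8.83 with ethanol in the Notch1-ER line. Tcf4 thus varied more between lines than within pairs, with the DNMAML-ER arrays lowest. Its treated minus vehicle differences were 0.03, -0.01 and 0.19. With the arrays rescaled, the DAPT difference of Tcf4 and the DNMAML-ER differences of Tcf3, Tcf12 and Tcf4 changed sign under at least 1 alternative, so no direction is given for them.

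**Figure D2:**
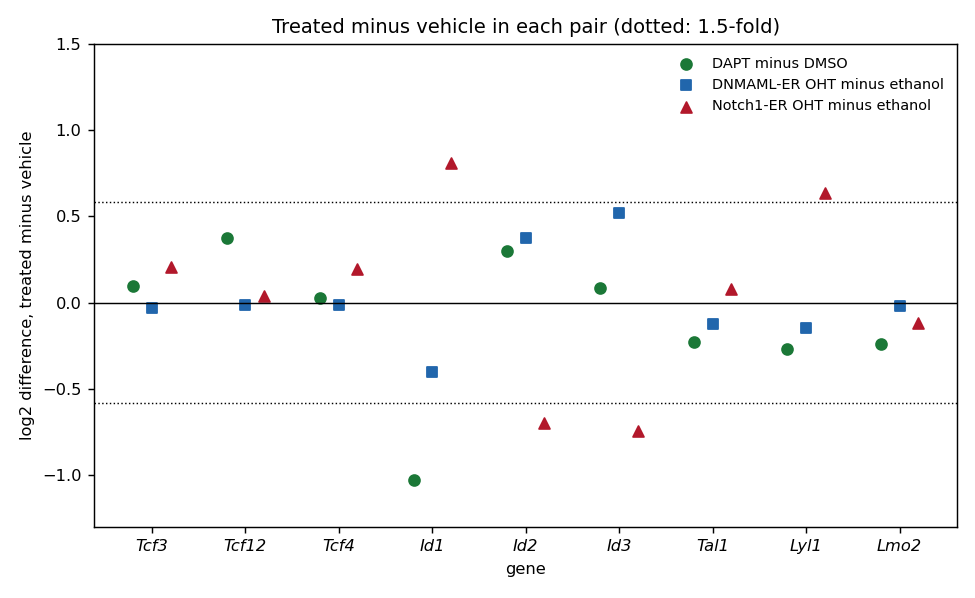
Log2 difference of treated minus vehicle (y axis) for each gene (x axis) in the DAPT pair (green circles), the DNMAML-ER pair (blue squares) and the Notch1-ER pair (red triangles), 1 pair of arrays per point. Dotted lines mark 1.5-fold: Id1 passes it with DAPT (-1.03), and Id1 (0.81), Lyl1 (0.64), Id2 (-0.70) and Id3 (-0.75) pass it with Notch1-ER.

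Counts were set against those over all tested probe sets. In the Notch1-ER pair, 4 of the 9 genes passed 1.5-fold against ethanol, where 2.29% of the 12150 tested probe sets did. Id1 and Lyl1 were the 2 higher ones, where 1.51% of the tested probe sets were that much higher, and Id2 and Id3 the 2 lower ones, where 0.782% were that much lower. With DAPT it was 1 of 9, Id1, where 8% of the tested probe sets did, and with DNMAML-ER 0 of 9, where 3.73% did. At 2-fold, Id1 passed with DAPT, where 1.63% of the tested probe sets did, and 0 of 9 passed with DNMAML-ER or Notch1-ER, where 0.79% and 0.527% did. In the OHT pairs as deposited, 8 of the 9 genes, all but Lmo2, had opposite signs with DNMAML-ER and Notch1-ER at any size. Of the tested probe sets, 47% did. The DNMAML-ER signs of Tcf3, Tcf12, Tcf4 and Lmo2 turn with the scaling, so the count depends on it. The median difference over the 9 genes was 0.08 with Notch1-ER, against -0.01 over all tested probe sets, with 2 of the 4 genes on either side of 0. With DAPT it was 0.03 against 0.02, and with DNMAML-ER -0.02 against 0.01. In the Notch1-ER pair, 0.91% of the tested probe sets differed at least as much as Id1, 1.05% as Id3, 1.28% as Id2 and 1.84% as Lyl1. With DNMAML-ER these shares ran between 5.25%, for Id3, and 50.3%, for Lyl1, and with DAPT between 1.47%, for Id1, and 77.9%, for Id3.

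By family, the Id genes had a median difference of 0.08 with DAPT, 0.38 with DNMAML-ER and -0.70 with Notch1-ER. These medians hide Id1, which ran against the other two in every pair. The difference between Id1 and Id2 on the same array changed by -1.33 with DAPT, by -0.78 with DNMAML-ER and by 1.51 with Notch1-ER. Both genes are read on the same arrays, so this change does not depend on a shift common to a whole array. The E protein genes had medians of 0.10, -0.02 and 0.19 in the same order. Taken relative to the mean of the 3 E protein genes on the same array, Id2 shifted by 0.13, 0.40 and -0.85 and Id3 by -0.08, 0.54 and -0.89. Id1 shifted by -1.19, -0.38 and 0.66. Relative to the E protein genes, then, Id2 and Id3 RNA was lower and Id1 RNA higher with Notch1-ER switched on. The shift of Id3 with DAPT was small and on the side of Id1. These are changes of log2 signals, not ratios of molecules.

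**Figure D3:**
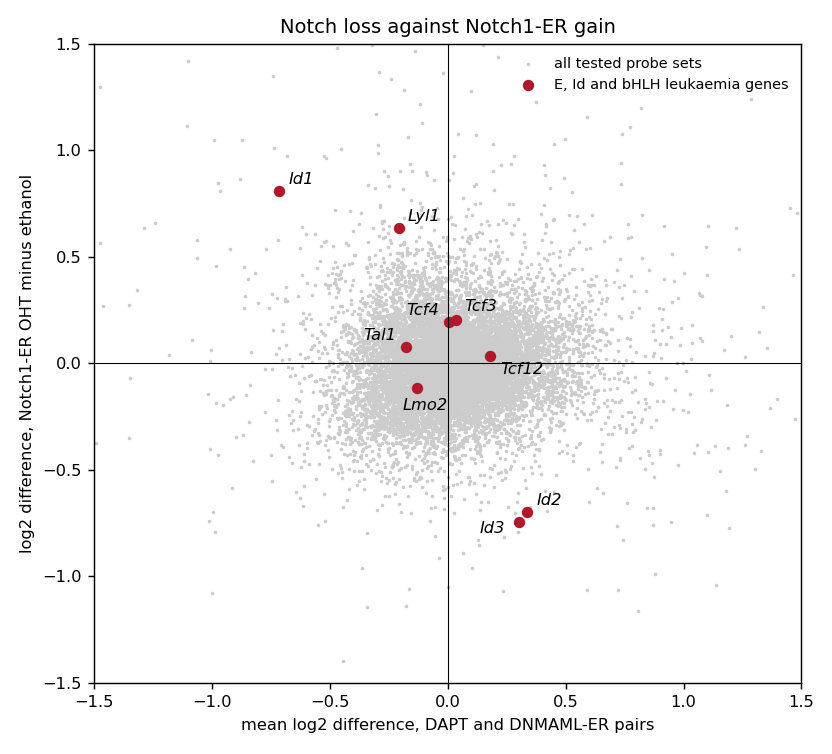
Mean log2 difference of the DAPT and DNMAML-ER pairs (x axis) against the log2 difference of the Notch1-ER pair (y axis) for all tested probe sets (grey) and the 9 genes (red, named); 36 probe sets lie outside the axes. Id1 and Lyl1 lie at the upper left, Id2 and Id3 together at the lower right, and the E protein genes, Tal1 and Lmo2 within the grey cloud.

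Of the 9 genes, 5 differed in all 3 pairs in the direction that the design gives for a single effect of Notch activity, where 31.8% of the tested probe sets did. Id1 and Lyl1 were higher, and Id2 and Id3 lower, where Notch activity was set higher. The other was Tal1, on the side of Id1, whose level is too near the lower limit for its small differences to be read. The size of the smallest of a gene's 3 differences is the least that the gene moved in any pair. It was 0.40 for Id1, and 79 of the 12150 tested probe sets, or 0.65%, had the design's direction at that size or more in every pair. For Id2 it was 0.30, reached by 147, or 1.21%. It was 0.15 for Lyl1, reached by 5.91%, and 0.08 for both Id3 and Tal1, reached by 12.8% and 13.6%.

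The 3 pairs were then treated as replicates of a contrast between a Notch-high arm (Notch1-ER with OHT, DMSO, and DNMAML-ER with ethanol) and a Notch-low arm (Notch1-ER with ethanol, DAPT, and DNMAML-ER with OHT), with the pair as a block. By limma, 0 of the 12150 tested probe sets passed an adjusted p of 0.05, which is 0%, and 1026 passed an unadjusted p of 0.05, which is 8.44%. Id1 averaged 8.13 in the Notch-high arm and 7.38 in the Notch-low arm, a difference of 0.75 ± 0.14 (moderated SE, 3 pairs; 95% interval 0.42 to 1.07; limma adjusted p = 0.22). It ranked 50 of 12150 by p. Leaving out the Notch1-ER pair gave Id1 an adjusted p by limma of 0.027, on the DAPT and DNMAML-ER pairs alone. That fit had 1 residual degree of freedom and called 778 of the tested probe sets, so passing it was not particular to Id1. Over its 10 alternatives the adjusted p of Id1 ran between 0.027 and 1.00.

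Id2 averaged 9.78 in the Notch-high arm and 10.24 in the Notch-low arm, a difference of -0.46 ± 0.11 (limma, moderated SE, 3 pairs; 95% interval -0.72 to -0.19; adjusted p = 0.40). Id3 averaged 6.55 and 7.00 in the same arms, a difference of -0.45 ± 0.14 (limma; 95% interval -0.79 to -0.11; adjusted p = 0.52). Lyl1 averaged 7.00 in the Notch-high arm and 6.65 in the Notch-low arm, a difference of 0.35 ± 0.12 (limma; 95% interval 0.06 to 0.65; adjusted p = 0.54). The intervals of Id1, Id2, Id3 and Lyl1 left out 0 before adjustment over all probe sets, and none of the 4 passed after it. The intervals of Tcf3, Tcf12, Tcf4, Tal1 and Lmo2 held 0. They ran between -0.20 and 0.29 for Tcf3, between -0.37 and 0.16 for Tcf12, and between -0.18 and 0.30 for Tcf4. With 3 pairs of unlike treatments, they do not set limits on an effect. A sign-flip permutation test on 3 pairs alone could not go below an exact two-sided p of 0.25.

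**Figure D4:**
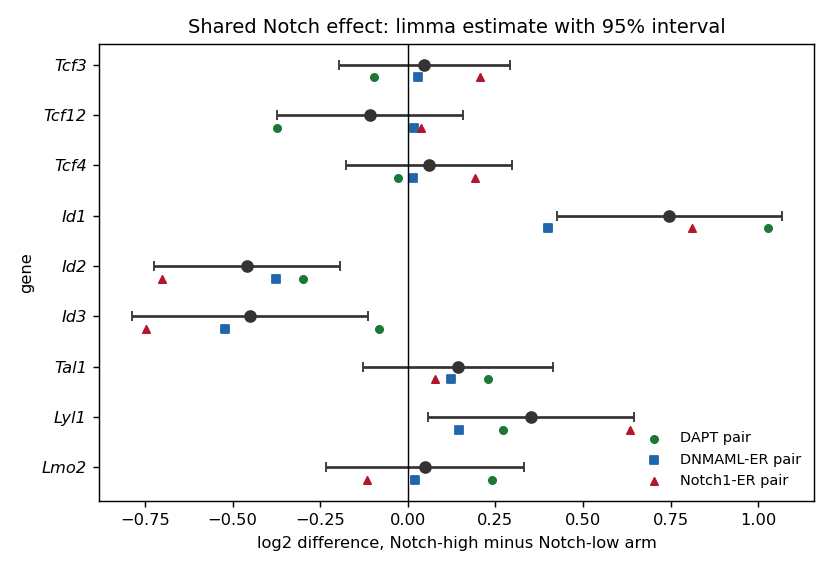
Difference of the Notch-high minus the Notch-low arm on the log2 scale (x axis) for each gene (y axis), as the limma estimate with its 95% interval (black, 3 pairs). Coloured points under it give the 3 single pairs, with the inhibitor pairs turned so that positive means higher with Notch activity. The intervals of Id1 and Lyl1 lie above 0 and those of Id2 and Id3 below it.

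The vehicle arrays show how the lines compared without switching anything on. The arrays of the fusion lines in ethanol had higher Id levels than the parental array in DMSO. Id1 was higher by 0.39 in the DNMAML-ER line and 0.76 in the Notch1-ER line, Id2 by 0.52 and 0.47, and Id3 by 0.38 and 0.72. Tcf4 was lower by differences of -0.45 and -0.29. At 1.5-fold, 2 of the 9 genes, Id1 and Id3, passed in the Notch1-ER line, where 8.77% of the tested probe sets did, and 0 of 9 in the DNMAML-ER line, where 8.77% did as well. Fusion, vehicle and time differ together here and cannot be told apart. Between the Notch1-ER and DNMAML-ER lines, both in ethanol, 0 of the 9 genes differed 1.5-fold, where 1.03% of the tested probe sets did. Id1 was higher by 0.37 and Id3 by 0.34 in the Notch1-ER line, while Id2 differed by -0.05. Id1 and Id3 thus ran together between the lines in ethanol and apart under OHT.

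Across the 6 arrays, Id2 and Id3 had a Pearson r of 0.89 and Id1 and Lyl1 one of 0.91, the highest of the 36 pairs among the 9 genes. Values nearly as far below 0 were those of Tcf12 with Lmo2, at -0.85, Tcf4 with Id3 and Tcf12 with Tal1, both at -0.82, and Tcf4 with Id2, at -0.78. These describe 6 arrays that differ in line as well as treatment. Among the 1073 other tested probe sets whose levels ranged over at least 1 log2 unit, those most like Id1 were ENSMUSG00000019590 (r = 0.99 over 6 arrays) and ENSMUSG00000081056 (r = 0.99). ENSMUSG00000019590 had a log2 level of 5.12 with DAPT and 5.89 with DMSO, 5.74 with OHT and 6.17 with ethanol in the DNMAML-ER line, and 7.38 with OHT and 6.78 with ethanol in the Notch1-ER line. Like Id1, it was lowest with DAPT and highest with Notch1-ER switched on, a likeness that its choice by r on these arrays makes likely. Those most like Id2 were ENSMUSG00000028518 (r = 0.95 over 6 arrays) and ENSMUSG00000027737 (r = 0.94). ENSMUSG00000027737 had a log2 level of 10.07 with DAPT and 9.40 with DMSO, 11.07 with OHT and 9.99 with ethanol in the DNMAML-ER line, and 8.75 with OHT and 9.74 with ethanol in the Notch1-ER line. As for Id2, its highest level was with DNMAML-ER switched on and its lowest with Notch1-ER switched on, which the choice by r again makes likely.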

How the data were processed

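Total RNA from 6 cultures was hybridised to 1 Affymetrix array each. The deposited values are log2 expression levels made by the authors using RMA (no version is named), per the submitters' processing notes. RMA includes a step that evens out the arrays' distributions, so a change common to most RNAs could go unseen. The deposited values still had unequal medians, lowest at 5.43 (DAPT array) and highest at 5.61 (ethanol array of the DNMAML-ER line). Quantile normalizing them a second time lowered the count of tested probe sets passing 1.5-fold with DAPT from 972 to 890. Differences as deposited can thus still hold some shift of a whole array. The labels used here state no array model, annotation release or genome build. The table holds 0 missing values, and its probe sets run between 1.51 and 14.0.

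Differences were taken as treated minus vehicle with R 4.3.3. The 12150 probe sets that reached 5.54 on at least 1 array were tested, all 9 genes among them. Genes were counted at 1.5-fold and 2-fold. The shared effect was fitted with limma 3.58.1 (lmFit, eBayes with trend, pair as block, 2 residual degrees of freedom, two-sided, Benjamini-Hochberg adjustment over all tested probe sets). The fit was tested on simulated data before use. It recovered 55% of 200 probe sets given a shared log2 change of 1, and 90.5% at a change of 2. Each run had 4 false calls. Smaller changes were not simulated. Nothing says that the 3 pairs are independent cultures of one kind, so p-values measure only the spread between these arrays.

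The 9 genes, the lists and the tests were chosen with earlier results of these data known. All 9 genes are named. The planned lists of partners, E2A turnover factors, targets, upstream genes, Notch readouts and cell type markers need symbols, and were not analysed here. Genes most like Id1 and Id2, the members that ranged over at least 1 log2 unit, were the top 2 by Pearson r. Promoter windows were searched with Python 3.11.15. The number of arrays limits the precision. OHT is written without the position of its hydroxyl group because the labels and the design text differ on it.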

Additional observations from a re-analysis of the deposited data

Results flagged for a closer look

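OHT was given to both fusion lines, and as deposited 8 of the 9 genes had opposite signs in them, as 47% of the tested probe sets did. The DNMAML-ER signs of Tcf3, Tcf12, Tcf4 and Lmo2 turn with the scaling, so that the count was 6 with array medians set equal, 8 after a second quantile normalization and 9 after cyclic loess. The Notch1-ER difference minus the DNMAML-ER difference, on the log2 scale, was 1.21 for Id1, -1.08 for Id2, -1.27 for Id3 and 0.78 for Lyl1. It was 0.23 for Tcf3, 0.053 for Tcf12, 0.21 for Tcf4 and 0.20 for Tal1. These contrasts between lines rest on 1 array a condition and were not tested.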

How the results depend on the processing

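Under a second quantile normalization, cyclic loess and array median centring, 22 of the 27 differences of the 9 genes in the 3 pairs kept their sign, among them all 12 of Id1, Id2, Id3 and Lyl1. Median centring moved the median DAPT difference of all tested probe sets to 0.14, against 0.02 as deposited, and differences there shift with it. At 2-fold, 0 of the 9 genes passed with Notch1-ER and 0 between Notch1-ER ethanol and DMSO, against 4 and 2 at 1.5-fold. A larger size can only lower such counts. Of all tested probe sets, 64 and 193 passed 2-fold in these comparisons. Leaving out 1 pair, limma called 0 to 1 of the 9 genes, the 1 being Id1 without the Notch1-ER pair (0.71, adjusted p 0.027), where it called 778 of all tested probe sets on 1 residual degree of freedom. The shared estimates of Id1, Id2, Id3, Lyl1 and Tal1 kept their sign in all 10 alternatives. Median centring reversed those of Tcf3 (-0.023), Tcf4 (-0.0099) and Lmo2 (-0.022). When 1 pair was left out, Tcf3 ran between -0.033 and 0.12 and Tcf4 between -0.0063 and 0.10, both reversed without the Notch1-ER pair. Tcf12 ran between -0.18 and 0.026 and Lmo2 between -0.047 and 0.13, both reversed without the DAPT pair. The cause was not tested. No paired analysis by replicate number was possible because each condition has 1 array and the labels carry no replicate numbers; the pair of treated and vehicle arrays was the block. Tal1 and Lmo2 lie too near the lower limit for small differences to be read.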
